A study of Homo sapiens with 8 samples.

Results

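The KLF family loci described here are 10 genes of the Krüppel-like factor family, KLF2, KLF3, KLF4, KLF5, KLF6, KLF7, KLF10, KLF11, KLF12 and KLF13. ATAC-seq, an assay that reads out where a transposase can reach DNA, was applied to MCF10A cells, an immortalised line of human mammary epithelial cells that carried no engineered change (genotype WT). The cells received TGFβ1 at 5 ng/ml for 6, 24 or 72 h, or solvent (BSA in PBS) alone, with 2 libraries per condition, and additives were renewed during long treatments. For the solvent samples the labels state a time of 0 h, while the study's legend to its time course describes 72 h in solvent. The data were 4 peak lists, 1 per condition, each called on both libraries of that condition together. They hold no value per library, so none of the differences given here could be compared with the spread between replicates, and no test was made.

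Peaks of the 4 lists that shared at least 1 bp were merged into 126658 regions. Of these, 134 overlapped the body of a KLF gene or the 50 kb on either side of it, and they are called KLF regions. None of them lay in the window of more than 1 of the genes, and for 125 of them the closest protein-coding transcription start site (TSS) was that of the KLF gene itself. Accessibility was measured as AUC, the area under the peak caller's significance curve, summed per region and list. The AUC of each TGFβ1 list was divided by that list's median ratio to solvent at regions within 3 kb of a TSS, and the result is called the scaled AUC. With a peak in both lists, a region was called raised or lowered when its scaled AUC differed from solvent by at least 1.5-fold, and without a solvent peak, or without one in the TGFβ1 list, it was called gained or lost. Positions are distances of a summit from the TSS of the gene's canonical transcript, positive in the direction of transcription.

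KLF proteins are transcription factors that bind GC-rich and CACCC-type sequences through zinc fingers at their carboxy terminus, and they share these sites with the related SP proteins. Family members differ in the partners they recruit: KLF10, KLF11 and KLF13 bind the SIN3 co-repressor, KLF3 and KLF12 bind CtBP, and KLF2, KLF4, KLF5, KLF6 and KLF7 can activate transcription. KLF10 and KLF11 were named as early genes induced by TGFβ, and KLF4 and KLF5 are known from epithelia, where the first accompanies differentiation and barrier formation and the second proliferation.

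Summit windows of 11 KLF regions are shown first, since the results below turn on these elements. They are the gained, raised and lowered regions described most fully, not the whole set, and those at KLF13 +116 kb, KLF7 -57.3 kb and KLF6 +9.7 kb were picked after their values were seen. Each spans 100 bp on either side of a summit on the plus strand of hg38, and none lies over an annotated exon. Capitals mark matches, on either strand, to AP-1 (TGACTCA or its reverse complement TGAGTCA), SMAD (GTCTAGAC or GTCTGGAC), KLF (GGGCGGGGC, GGGCGTGGC, GGGTGGGGC or GGGTGTGGC), E-box (CACCTG) and TEAD (GGAATG) letters, each counted whether or not it overlapped another. Of such windows over all 126658 regions, 32.3% held AP-1, 0.942% SMAD, 5.80% KLF, 17.9% E-box and 15.9% TEAD letters.
KLF2 +14.3 kb, gained, chr19:16339019-16339219: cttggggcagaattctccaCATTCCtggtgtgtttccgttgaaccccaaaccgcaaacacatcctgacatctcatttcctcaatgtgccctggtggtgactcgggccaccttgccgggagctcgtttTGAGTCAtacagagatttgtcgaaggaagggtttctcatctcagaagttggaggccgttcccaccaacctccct
KLF13 +117.1 kb, gained, chr15:31443881-31444081: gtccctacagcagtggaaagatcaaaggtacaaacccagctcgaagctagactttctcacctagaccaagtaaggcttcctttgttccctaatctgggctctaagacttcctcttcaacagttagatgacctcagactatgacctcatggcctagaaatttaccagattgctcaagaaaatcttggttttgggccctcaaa
KLF12 +330.2 kb, gained, chr13:73804124-73804324: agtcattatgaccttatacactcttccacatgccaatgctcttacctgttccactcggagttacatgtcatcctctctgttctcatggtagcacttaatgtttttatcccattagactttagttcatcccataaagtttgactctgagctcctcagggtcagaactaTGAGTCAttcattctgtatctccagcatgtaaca
KLF13 +116 kb, raised, chr15:31442716-31442916: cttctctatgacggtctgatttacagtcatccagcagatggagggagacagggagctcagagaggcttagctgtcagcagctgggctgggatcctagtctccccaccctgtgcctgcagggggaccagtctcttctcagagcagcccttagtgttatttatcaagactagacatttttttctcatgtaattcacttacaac
KLF13 +130.9 kb, raised, chr15:31457649-31457849: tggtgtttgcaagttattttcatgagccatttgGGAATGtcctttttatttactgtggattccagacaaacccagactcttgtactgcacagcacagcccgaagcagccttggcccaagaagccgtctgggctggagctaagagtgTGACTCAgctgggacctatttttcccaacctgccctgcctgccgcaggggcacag
KLF6 -21.6 kb, raised, chr10:3806700-3806900: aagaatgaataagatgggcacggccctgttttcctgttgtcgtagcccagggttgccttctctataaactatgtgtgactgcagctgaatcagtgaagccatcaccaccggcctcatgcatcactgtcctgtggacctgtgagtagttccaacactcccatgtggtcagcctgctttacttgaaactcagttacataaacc
KLF6 +9.7 kb, raised, chr10:3775392-3775592: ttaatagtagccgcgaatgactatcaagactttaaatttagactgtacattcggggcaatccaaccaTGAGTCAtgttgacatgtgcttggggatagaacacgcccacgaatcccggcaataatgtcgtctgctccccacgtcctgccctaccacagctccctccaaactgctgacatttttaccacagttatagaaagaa
KLF7 -57.3 kb, raised, chr2:207223119-207223319: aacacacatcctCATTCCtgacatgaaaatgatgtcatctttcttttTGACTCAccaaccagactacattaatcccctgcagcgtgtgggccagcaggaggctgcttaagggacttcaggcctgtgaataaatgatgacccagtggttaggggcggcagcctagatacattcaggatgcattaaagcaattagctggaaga
KLF13 -29.9 kb, lowered, chr15:31296848-31297048: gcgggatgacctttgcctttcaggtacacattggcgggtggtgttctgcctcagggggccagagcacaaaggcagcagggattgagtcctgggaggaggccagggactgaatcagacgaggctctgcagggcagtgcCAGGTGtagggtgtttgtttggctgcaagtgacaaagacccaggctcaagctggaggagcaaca
KLF3 +9.6 kb, lowered, chr4:38673693-38673893: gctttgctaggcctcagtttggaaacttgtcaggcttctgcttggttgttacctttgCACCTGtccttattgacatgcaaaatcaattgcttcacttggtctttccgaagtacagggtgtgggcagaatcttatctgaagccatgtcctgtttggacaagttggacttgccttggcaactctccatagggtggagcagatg
KLF4 +5.5 kb, lowered, chr9:107484213-107484413: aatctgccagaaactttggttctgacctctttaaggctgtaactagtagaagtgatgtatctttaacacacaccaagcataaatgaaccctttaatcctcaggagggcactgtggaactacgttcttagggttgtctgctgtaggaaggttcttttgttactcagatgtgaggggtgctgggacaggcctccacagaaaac

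Among these windows, AP-1 letters stood in 5 of the 8 that were gained or raised, namely those at KLF2, KLF12, KLF7, KLF13 +130.9 kb and KLF6 +9.7 kb. Of the 4 regions lowered at 72 h, those at KLF13 and KLF3 held E-box letters, those at KLF4 and KLF11 did not, and none held AP-1 letters. Over all KLF regions, 29.1% held AP-1 letters (39 of 134), 18.7% E-box, 14.9% TEAD, 7.46% KLF and 1.49% SMAD letters, and the 95% Wilson interval of each share, which covers counting error only, included the share in all regions. Of the 31 KLF regions that had a peak at 72 h and none in solvent, 14 (45.2%) held AP-1 letters, beside 39.9% of all regions of that kind. Of the 18 KLF regions raised at 72 h, 7 (38.9%) held them, beside 46.3% of all raised regions. Of the 7 KLF regions lowered or lost at 72 h, none held AP-1 letters and 3 held E-box letters, beside 10.0% and 29.0% of all lowered or lost regions. A match is a run of letters, not a shown binding site.

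Across the whole data set, the lists held 86209 peaks in solvent and 107656, 118433 and 116720 after 6, 24 and 72 h, and the median ratio to solvent at regions within 3 kb of a TSS was 0.44, 0.38 and 0.25 on the log2 scale. A longer list, a wider peak and a larger AUC all go with deeper sequencing, and the depth of the libraries is not known here. The labelled cell type was checked at promoters: a peak lay within 3 kb of the canonical TSS of KRT5, KRT14, KRT17, CDH1 and EPCAM, which mark basal and epithelial cells, but not of TP63. Of 4 genes of other cell types, CD3E, PECAM1 and CDH5 had no promoter peak and PTPRC, a gene of blood cells, had one with a scaled AUC of 377 in solvent and 871 at 72 h. The KRT14 promoter was at 357 in solvent, below PTPRC, so a peak alone did not separate the markers from the other genes. At TP63 only the canonical TSS was checked, and its locus held 28 regions.

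KLF regions were longer than most, with a median of 548 bp against 384 bp for all regions, and had a median solvent AUC of 1099 against 754. Of the 134, 84 (62.7%) were distal, meaning more than 3 kb from any TSS, beside 65.6% of all regions. A peak was present in all 4 lists in 93 KLF regions (69.4%, beside 62.6% of all regions). Another 10 had a peak in all TGFβ1 lists but not in solvent (7.46%, beside 14.3%), 14 at 24 and 72 h only (10.4%, beside 7.55%), 6 at 72 h only (4.48%, beside 4.61%) and 4 at 6 h only (2.99%, beside 2.03%).

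TGFβ1 was accompanied by more open regions at the KLF loci, from 96 in solvent to 112, 122 and 124 after 6, 24 and 72 h. At 6 h, 16 of 112 KLF regions were gained (14.3%, 95% Wilson interval 8.99 to 22.0, covering counting error only), beside 23.0% of all regions. At 24 h 27 of 122 were gained (22.1%, interval 15.7 to 30.3, beside 30.2%), and at 72 h 31 of 124 (25.0%, interval 18.2 to 33.3, beside 30.1%). The share gained at the KLF loci was thus below that of all regions at each time, and the share of all regions lay above the interval at 6 h and inside it at 24 and 72 h. With each list shortened to its 86209 strongest peaks, the length of the shortest list, the shares gained were 2.08%, 9.09% and 15.8%, beside 9.19%, 13.2% and 15.6% of all regions. KLF regions were also longer and stronger in solvent than most, and the part this had in the shares was not tested.

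Few KLF regions were lost. None of the 96 with a solvent peak lacked one at 6 h, which by counting alone allows a share of up to 3.12%, 1 lacked it at 24 h (1.04%) and 3 at 72 h (3.12%), beside 0.714%, 1.86% and 3.44% of all regions.

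Where both lists had a peak, changes of at least 1.5-fold were mostly increases. At 6 h 10 of 96 KLF regions were raised (10.4%, beside 11.7% of all regions) and 1 was lowered (1.04%, beside 1.40%). At 24 h 16 of 95 were raised (16.8%, beside 20.3%) and 5 lowered (5.26%, beside 3.22%), and at 72 h 18 of 93 were raised (19.4%, beside 22.9%) and 4 lowered (4.30%, beside 3.90%). These shares were near those of all regions and set the KLF loci apart in neither direction. They depended on the value used: per base of peak 4.17%, 8.42% and 8.60% were raised, beside 5.41%, 10.5% and 11.6% of all regions, and without scaling 37.5%, 34.7% and 29.0%, beside 40.5%, 43.0% and 35.8%.

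The median scaled log2 ratio of KLF regions to solvent was 0.07, -0.00 and 0.09 at 6, 24 and 72 h, beside 0.06, 0.12 and 0.15 over all regions. Distal KLF regions had medians of 0.11, 0.13 and 0.11, beside 0.12, 0.23 and 0.27 for all distal regions, so the increase with time in distal regions at large was not seen in the KLF median. Of the 93 regions present in every list, 37 (39.8%) had their highest scaled AUC at 72 h, 21 (22.6%) in solvent, 20 (21.5%) after 6 h and 15 (16.1%) after 24 h, and of all regions present in every list 40.1%, 23.6%, 13.7% and 22.7%. At each step 15 of the 93 were higher than in the list before (16.1%, beside 22.8%) and 9 lower (9.68%, beside 6.73%).

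By position, the 10 promoter regions had a summed scaled AUC of 68197 in solvent and 65060, 63410 and 65559 with TGFβ1. The 51 further regions within the gene bodies summed to 44512, 47257, 46538 and 49667, the 31 upstream regions to 28187, 30359, 30760 and 32819, and the 42 downstream regions to 38981, 44835, 47802 and 50984. The 72 h log2 ratios of these sums were 0.39 downstream, 0.22 upstream, 0.16 in gene bodies and -0.06 at promoters. Over regions with a peak in both lists alone they were 0.26, 0.14, -0.00 and -0.06, and without KLF13 the downstream and upstream ratios were 0.29 and 0.31. The scaling centres regions within 3 kb of a TSS on 0 by construction, so promoters as a class would lie near 0 in any case.

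**Figure D1:**
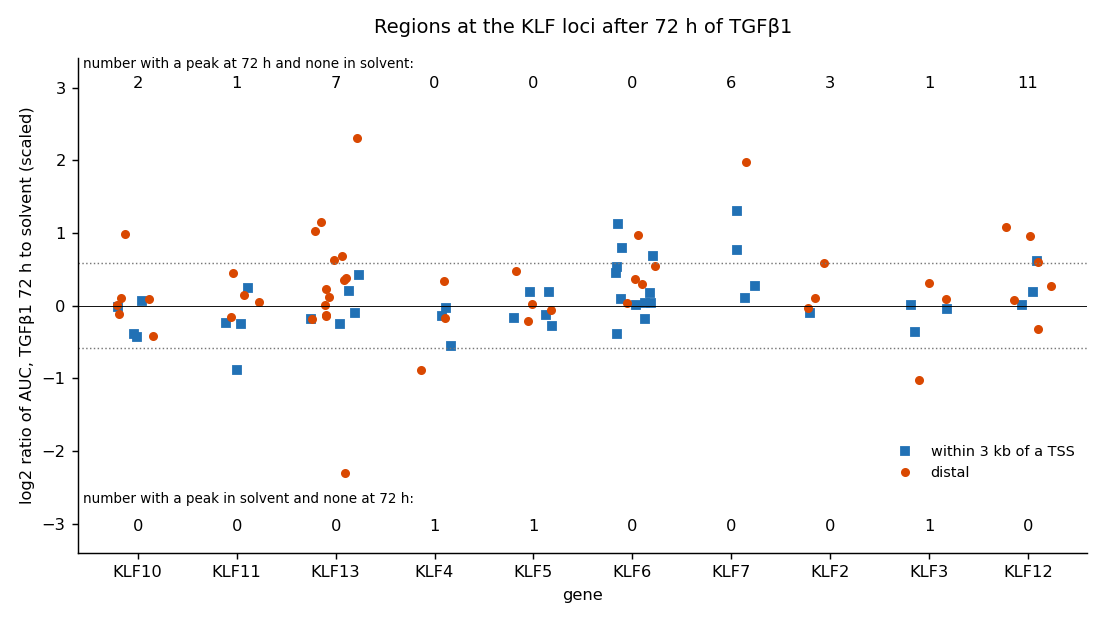
Log2 ratio of scaled AUC at 72 h of TGFβ1 to solvent for the 93 KLF regions with a peak in both lists, by gene; squares are within 3 kb of a TSS, circles are distal, dotted lines mark 1.5-fold, and points are spread sideways for legibility. Numbers along the top count the 31 gained regions (11 at KLF12 and 7 at KLF13) and those along the bottom the 3 lost regions (1 each at KLF4, KLF5 and KLF3); single regions at KLF13 mark both ends of the range, at 2.30 and -2.30.

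All 10 genes had a peak over the canonical TSS in every list, and no promoter region passed 1.5-fold at any time. At 72 h the ratio to solvent ran from -0.25 (KLF11) to 0.11 (KLF7) on the log2 scale, with a median of -0.07. Without scaling it ran from -0.00 (KLF11) to 0.35 (KLF7). Of 13767 protein-coding promoters measured, 3.04% were raised and 1.30% lowered at 72 h, with a median of -0.08.

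Per base of region, the scaled promoter AUC in solvent was lowest at KLF7 (2.55), KLF13 (2.58), KLF11 (2.64) and KLF3 (2.67). It was intermediate at KLF4 (3.16), KLF6 (3.30) and KLF12 (3.34), and highest at KLF5 (3.60), KLF2 (3.62) and KLF10 (3.85). With 1 list per condition, neighbours in this order cannot be told apart or shown to be alike. In the RefSeq table of promoters (GRCh38.p14), 8 of the 10 genes had an entry, with 16 starts in all; KLF3 and KLF10 had none. KLF letters stood in 7 of these 16 windows (43.8%) and in 18.4% of all 35116, while AP-1 and SMAD letters stood in none of the 16, beside 4.95% and 0.954%. The 16 windows had a median GC content of 69.5%, against 58.7% for all, and 4 each belonged to KLF7 and KLF12. The part of base composition in the KLF letters was not tested. These promoter windows are not the summit windows shown above, so their shares cannot be set beside those of summit windows.

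**Figure D2:**
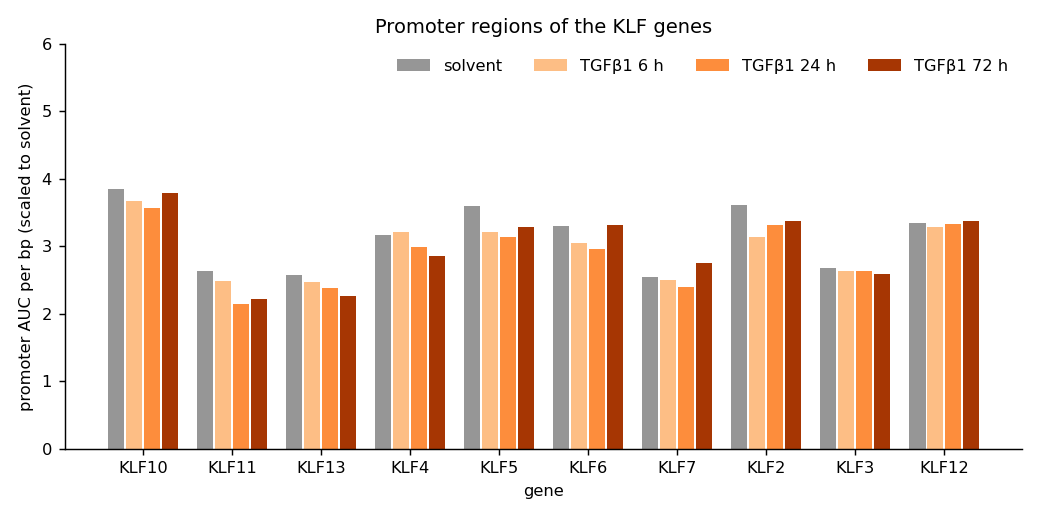
Scaled AUC per base pair of the promoter region of each KLF gene in the 4 peak lists (bars, 1 value per list, no error because replicates were pooled by the authors). Within every gene the bars lie within 1.5-fold of solvent, and in solvent they run from 2.55 at KLF7 to 3.85 at KLF10.

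Summed over whole loci, no KLF gene passed 1.5-fold at any time either. At 72 h 10.9% of 17984 protein-coding loci were raised and 0.128% lowered. The sum over the 10 loci was 0.06, 0.07 and 0.15 higher than solvent on the log2 scale at 6, 24 and 72 h. At 72 h the loci ordered as KLF4 (-0.23), KLF3 (-0.17), KLF5 (-0.08), KLF10 (-0.02), KLF11 (0.07), KLF13 (0.15), KLF6 (0.28), KLF2 (0.38), KLF12 (0.45) and KLF7 (0.50). The median over the 10 was 0.11, which is also that of all protein-coding loci, and the 5th to 95th percentile of those ran from -0.15 to 0.91. KLF4 and KLF3 lay below that range, and the other 8 within it. Regions without a solvent peak enter these sums as 0 in solvent. Over regions with a peak in both lists alone, the 72 h log2 ratio was 0.32 at KLF7, 0.28 at KLF6, 0.14 at KLF12, 0.04 at KLF2, 0.03 at KLF11, 0.01 at KLF13, -0.06 at KLF10, -0.06 at KLF5, -0.17 at KLF3 and -0.19 at KLF4. Per base of peak, the locus ratio had the opposite sign at 5 genes, KLF2 (-0.41), KLF7 (-0.13), KLF12 (-0.13), KLF13 (-0.07) and KLF5 (0.13), and the same sign at KLF6 (0.13), KLF11 (0.06), KLF10 (-0.02), KLF3 (-0.03) and KLF4 (-0.10). The order of the loci therefore depended on the measure.

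**Figure D3:**
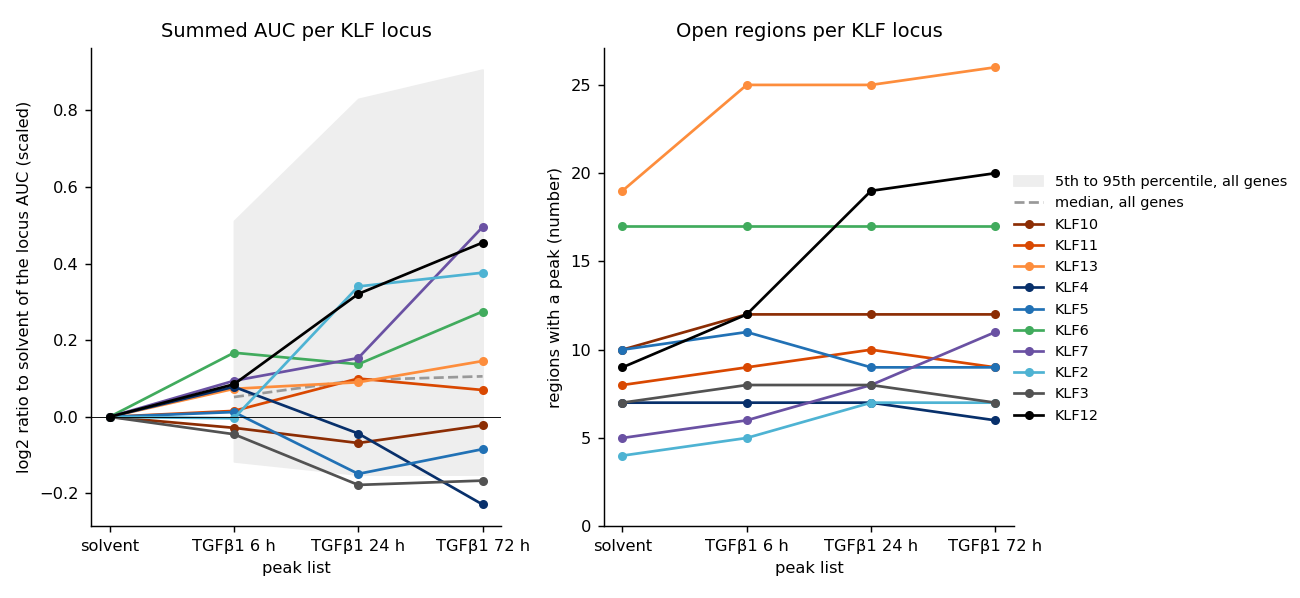
Left, log2 ratio to solvent of the scaled AUC summed over each KLF locus (gene body and 50 kb on either side) in the TGFβ1 lists, with the median and the 5th to 95th percentile of 17984 protein-coding loci in grey; right, number of regions with a peak per locus and list. KLF7, KLF12 and KLF2 were highest at 72 h and KLF4 and KLF3 lowest, and the number of open regions went from 9 to 20 at KLF12 and from 5 to 11 at KLF7. Of all regions with a peak at 72 h, 30.1% were gained.

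KLF10 encodes a repressor that binds SIN3 and was first described as a gene induced early by TGFβ. Its promoter region was the longest of the 10 genes, 4375 bp, and its scaled AUC was 16832 in solvent and 16042, 15643 and 16603 after the 3 treatments. In solvent it ranked 9 of 13863 promoters with a peak by AUC and 1119 by AUC per base of peak. The promoter was thus wide and open without TGFβ1, and its log2 ratios to solvent were -0.07, -0.11 and -0.02. Of the 12 regions at the locus, 2 were gained, the stronger 41.3 kb downstream, with a scaled AUC of 154, 429 and 506 after 6, 24 and 72 h. One region was raised, 45.7 kb downstream of the TSS, at 360 in solvent and 664, 799 and 712 after 6, 24 and 72 h. Upstream, 5 regions summed to 7290 in solvent and 6859, 6251 and 6335 later. The strongest of them, 30.3 kb before the TSS, was at 3343 in solvent and 2868, 2393 and 2557 later, and did not pass 1.5-fold. The locus sum had log2 ratios of -0.03, -0.07 and -0.02.

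KLF11 encodes the closest relative of KLF10 and also recruits SIN3. Its promoter region went from a scaled AUC of 2826 in solvent to 2673, 2299 and 2381 after 6, 24 and 72 h, the lowest promoter ratio of the 10 genes at 72 h. A region 24.1 kb upstream (chr2:10019205-10019534) was the only one lowered at 72 h, at 756 in solvent and 575, 493 and 411 in the TGFβ1 lists. On the other side, a region 7.3 kb upstream was at 1499 in solvent and 1692, 2078 and 2037 later, below the 1.5-fold limit. Downstream, a weak region 36 kb from the TSS, in an intron of the neighbouring gene CYS1, went from 217 in solvent to 515, 524 and 185, and was raised at 6 and 24 h only. Its peak was 273 bp wide in solvent and 719, 727 and 273 bp later, and its AUC per base before scaling was 0.795 in solvent and 0.972, 0.937 and 0.803 later. The matching median log2 ratio at all regions within 3 kb of a TSS was 0.30 and 0.26 at 6 and 24 h. Taking it off left no rise per base, so the call at 6 and 24 h went with the wider peak. The sum over the locus was 0.02, 0.10 and 0.07 above solvent on the log2 scale.

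KLF13, a SIN3-binding repressor of the same branch, had the most regions, 28, and the widest range of changes. The number with a peak went from 19 in solvent to 25, 25 and 26, while the promoter region went from 9954 to 9550, 9225 and 8736. Of the 26 open at 72 h, 7 were gained, beside 30.1% of all regions. The sum over the locus was 0.07, 0.09 and 0.15 above solvent on the log2 scale. That small sum combined changes of opposite sign at its ends.

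Beyond the 3' end of KLF13, 6 regions with a solvent peak summed to a scaled AUC of 6239 in solvent and 8790 at 72 h, a log2 ratio of 0.49, and 4 of them were raised at 72 h. Another 3 were gained, with a summed AUC of 2267 over 1152 bp of peak at 72 h. The strongest of those with a solvent peak, at 138.7 kb, was at 3592 in solvent and 2960, 3070 and 3262 later. The largest ratio of any KLF region was 116 kb from the TSS (chr15:31442669-31443157), where the scaled AUC was 285 in solvent and 690, 1181 and 1406 after 6, 24 and 72 h, so that the log2 ratio reached 2.30. Because its solvent AUC was below the minimum of 400 set for naming, this region was picked after its values were seen. With a minimum AUC of 400 for all peaks, it had no ratio. Its neighbour at 117.1 kb (chr15:31443616-31444162) had no solvent peak and 360, 528 and 1006 later. A region at 130.9 kb (chr15:31457271-31457911) was at 716 in solvent and 1281, 1534 and 1585 later, a log2 ratio of 1.15. There the solvent peak was 227 bp wide and the 72 h peak 634 bp, and per base of peak the 72 h ratio had the opposite sign, at -0.26, whereas at 116 kb it remained 1.87.

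Upstream of KLF13, 1 of the 2 regions with a solvent peak went in the opposite direction. A region 29.9 kb before the TSS (chr15:31296585-31297217) went from a scaled AUC of 1807 in solvent to 1204, 645 and then 368. This was the lowest ratio of any KLF region, -2.30 on the log2 scale at 72 h and -1.44 per base of peak. It was lower at each step, and the peak narrowed from 633 to 368 bp. It was also the 1 KLF region lowered by 6 h, at -0.59. The other upstream region with a solvent peak, 20.2 kb before the TSS, was at 741 in solvent and 728, 755 and 742 later.

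**Figure D4:**
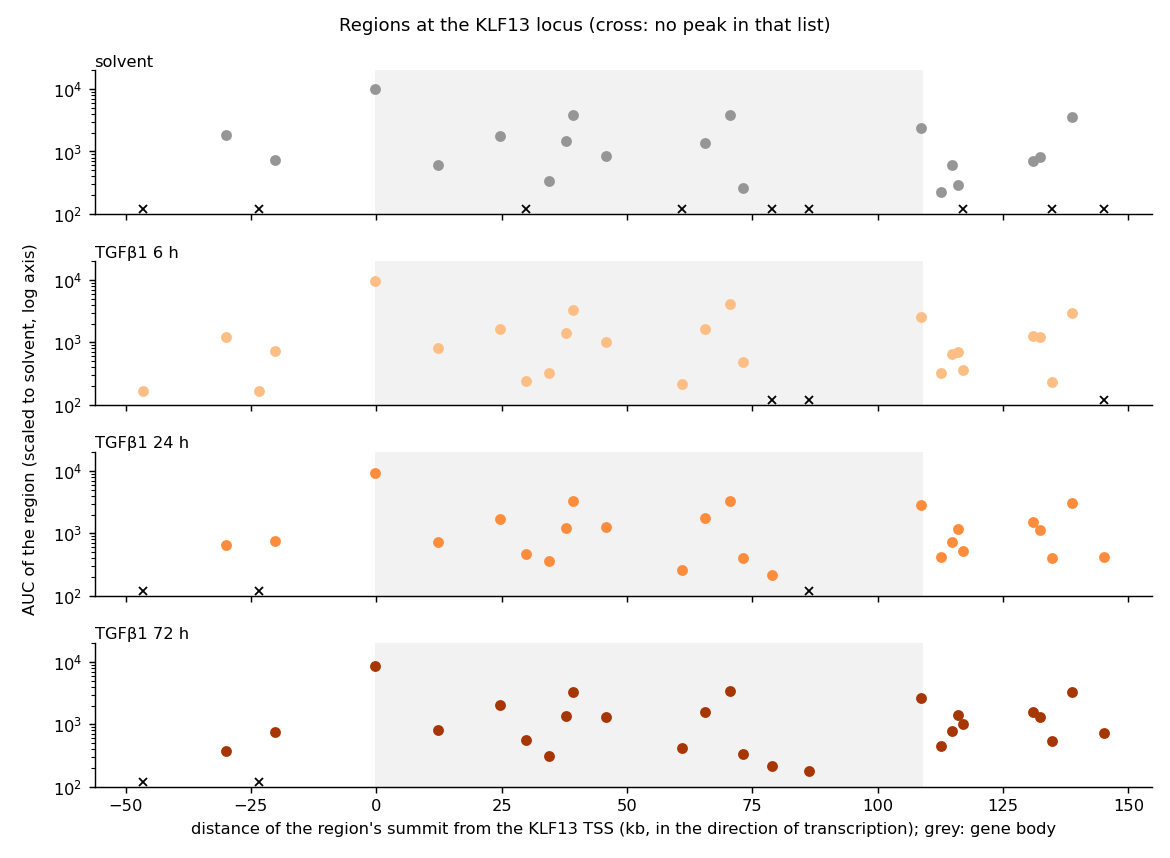
Scaled AUC (log axis) of the 28 regions at KLF13 against the distance of the summit from the TSS, with 1 panel per peak list; crosses are regions without a peak in that list and the grey band is the gene body. Beyond the gene body the 3 crosses in solvent are points at 72 h and most other points are higher, while the point 29.9 kb upstream goes from 1807 to 368.

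KLF4 encodes an activator and repressor of differentiating epithelia that is also used to reprogram cells to pluripotency. Its locus had 7 regions, each with a solvent peak, and none was raised or gained at any time. Over all regions 22.9% were raised and 30.1% gained at 72 h, and 7 regions are too few to set this locus apart. Its summed scaled AUC was 10442 in solvent and 11026, 10132 and 8911 after 6, 24 and 72 h, and at 72 h 98.1% of protein-coding loci had a higher ratio, although per base of peak the KLF4 ratio was -0.10. The promoter region was at 3740 in solvent and 3792, 3540 and 3378 later, so most of the difference lay outside it.

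Within the KLF4 gene, a region next to the promoter (chr9:107487615-107489242) was at 2664 in solvent and 2786, 2458 and 1820 later, a 72 h log2 ratio of -0.55. Downstream, a region at 5.5 kb (chr9:107484207-107484436) was at 473 in solvent and 412, 299 and 257 later, a ratio of -0.88. A weak region at 8.5 kb, at 255 in solvent and 304 and 279 after 6 and 24 h, had no peak at 72 h. The one region above solvent at 72 h was 15.2 kb upstream, at 1093 in solvent and 1500, 1446 and 1381 later.

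KLF5, an activator of proliferation in basal epithelial cells, had 11 regions, and for each of them the KLF5 TSS was the closest protein-coding one. None was raised or lowered at any time, beside 22.9% and 3.90% of all regions at 72 h, and 11 regions are too few to set this locus apart. The promoter region was at 6707 in solvent and 5974, 5839 and 6125 later. Of the 9 regions present in every list, 6 had their highest scaled AUC at 6 h (66.7%, beside 13.7% of all such regions). Some of these leads were small, as 1114 at 6 h against 1105 in solvent 2.1 kb from the TSS. The highest ratio at 72 h was 37.3 kb downstream, at 643 in solvent and 902, 939 and 890 later (0.47). A region in the first part of the gene, 2.1 kb from the TSS, was at 1105 in solvent and 1114, 997 and 907 later. A weak region 20.5 kb from the TSS, at 212 in solvent, was at 174 at 6 h and had no peak thereafter.

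KLF6 is an early response gene expressed in most cell types. Its 17 regions had a peak in all 4 lists, so no region was gained or lost, beside 30.1% and 3.44% of all regions at 72 h. The locus sum was 35969 in solvent and 40397, 39562 and 43523 later, while the promoter region stayed at 5417, 5010, 4869 and 5432. Regions outside the promoter therefore carried the difference.

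The highest 72 h ratio at KLF6 was 21.6 kb upstream (chr10:3805204-3807111), at 1882 in solvent and 3315, 3639 and 4088 after 6, 24 and 72 h, or 0.82, 0.95 and 1.12 on the log2 scale. Just beyond the 3' end of the gene, a region 9.7 kb from the TSS was at 2859 in solvent and 4585, 4892 and 5611 later, or 0.68, 0.77 and 0.97. Both were raised from 6 h on, and per base of peak their 72 h ratios were 0.76 and 0.68. In contrast, a region over the last exon of KLF6, 8.0 kb from the TSS, was at 1629 in solvent and 1866, 1213 and 1248 later. A weaker region 35.4 kb downstream was at 677 in solvent and 917, 1049 and 1175 later, while its peak widened from 309 to 596 bp and its 72 h ratio per base was -0.08.

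KLF7, a broadly expressed activator known from the nervous system, had the highest locus ratio of the 10 genes at 72 h. Its locus had 5 regions with a peak in solvent and 6, 8 and 11 after 6, 24 and 72 h. The locus sum was 10145, 10830, 11285 and 14304, a 72 h log2 ratio of 0.50, although 13.9% of protein-coding loci had a higher one. Over regions with a peak in both lists the ratio was 0.32, and per base of peak it had the opposite sign. All 5 regions present in every list were highest at 72 h, beside 40.1% of all regions present in every list.

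Upstream of KLF7, in an intron of the long non-coding RNA gene MYOSLID, a region at 57.3 kb (chr2:207223047-207223432) was at 206 in solvent and 595, 717 and 812 later, a 72 h log2 ratio of 1.98, or 1.06 per base of peak. It lay below the naming minimum and was picked after its values were seen. In the gene body, a region 31.9 kb from the TSS was at 728 in solvent and 745, 894 and 1236 later. It thus differed in timing from the KLF6 regions at -21.6 and +9.7 kb, being close to solvent at 6 h. Late timing was also seen at KLF6, where a region at -1.3 kb was at 827 in solvent and 905, 801 and 1327 later. The promoter region was at 6182 in solvent and 6074, 5798 and 6659 later.

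KLF2, best known from endothelium, where blood flow induces it, had 4 regions with a peak in solvent and 5, 7 and 7 later. Of its 7 regions open at 72 h, 3 were gained, beside 30.1% of all regions. The strongest region gained at any KLF locus was 14.3 kb downstream of its TSS (chr19:16338460-16339381), with no solvent peak and a scaled AUC of 534, 900 and 1091 after 6, 24 and 72 h. A second region, 22.7 kb upstream in an intron of KLF2-DT, was at 583 in solvent and 693, 951 and 879 later, raised at 24 and 72 h. Neither change was shared by the promoter, at 2951 in solvent and 2561, 2704 and 2753 later. The locus sum was -0.00, 0.34 and 0.38 relative to solvent on the log2 scale, and 20.0% of protein-coding loci had a higher ratio at 72 h.

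KLF3 encodes a repressor that recruits CtBP. Its promoter region was among the most even, at 5921 in solvent and 5850, 5847 and 5750 later. Inside the gene, 9.6 kb from the TSS (chr4:38673110-38674235), an intronic region was at 1858 in solvent and 1492, 784 and 913 after 6, 24 and 72 h, a log2 ratio of -0.32, -1.25 and -1.03. The adjacent intronic region at 10.8 kb was at 366 in solvent and 337 and 197 at 6 and 24 h, and had no peak at 72 h. Both neighbours thus were lower from 24 h on. The locus sum was -0.05, -0.18 and -0.17 relative to solvent, and 96.0% of protein-coding loci had a higher ratio at 72 h.

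KLF12, which also recruits CtBP and was found as a repressor of the gene for AP-2α, has the longest gene body of the 10 genes. Its regions with a peak went from 9 in solvent to 12, 19 and 20. Of the 21 regions at the locus, 12 had no solvent peak, and 11 of these lay in its introns, with a median length of 234 bp. At 72 h the 11 that were open had scaled AUCs of 180 to 650, so each was weak beside the promoter region, at 7666 in solvent and 7533, 7646 and 7742 later.

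Across the KLF12 gene body outside the promoter, 6 regions with a solvent peak summed to a scaled AUC of 4197 in solvent and 5166 at 72 h, or 0.30 on the log2 scale. The 10 regions gained there by 72 h added 3436 over 2391 bp of peak. Among regions with a solvent peak above the naming minimum, the highest ratio was 412.1 kb into the gene (chr13:73722115-73722599), at 593 in solvent and 843, 1043 and 1147 later (0.95). Of the regions gained here and open at 6, 24 and 72 h alike, the one with the largest AUC at 72 h was 330.2 kb from the TSS (chr13:73804052-73804373), at 251, 424 and 634. In the opposite direction, a region at 431.4 kb was at 2104 in solvent and 1727, 1533 and 1688 later.

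**Figure D5:**
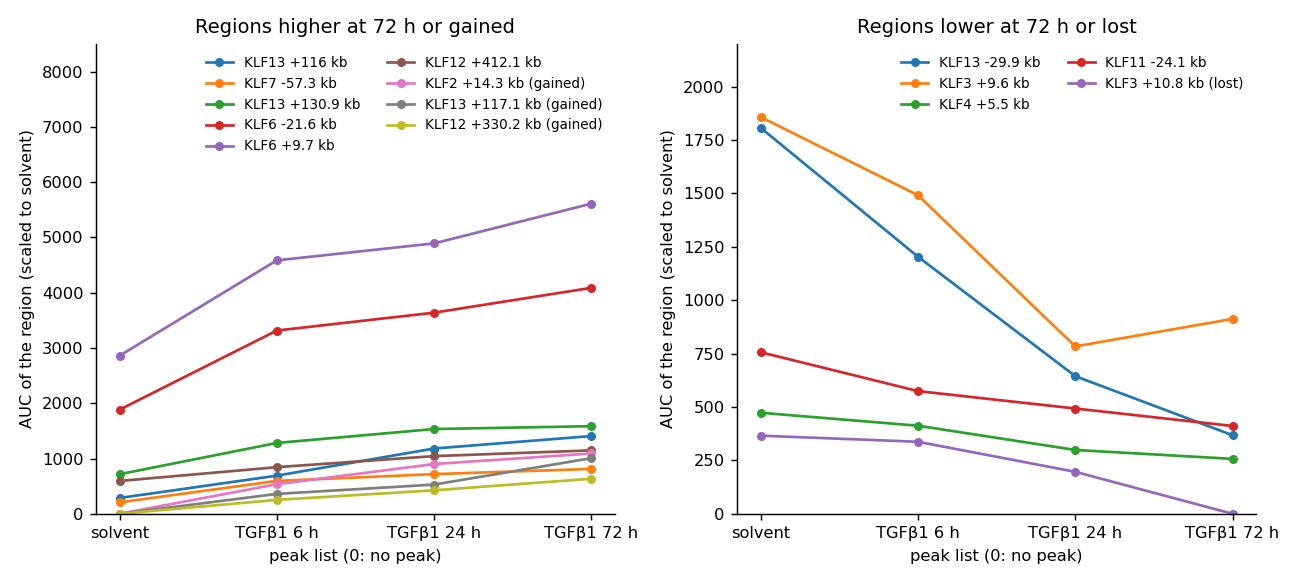
Scaled AUC in the 4 peak lists for KLF regions that were higher at 72 h or gained (left) and lower at 72 h or lost (right), named by gene and distance from its TSS; 0 means no peak and each point is 1 pooled list. Regions on the left are the largest rises among those strong at 72 h, and gained regions chosen for a peak in all TGFβ1 lists. All are above solvent at 6 h, the gained ones because of that choice. KLF regions that opened later, 14 at 24 and 72 h only and 6 at 72 h only, are not shown. On the right KLF13 -29.9 kb drops from 1807 to 368 while KLF3 +9.6 kb reaches its lowest value, 784, at 24 h.

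A fixed list of other KLF, SP and co-repressor genes was measured in the same way. It was drawn up with earlier results of these data known. Of 8 further KLF genes, 6 had at least 3 regions. Among these loci, 2 were raised at 72 h, KLF15 (0.78) and KLF17 (1.07), and none lowered, beside 10.9% and 0.128% of protein-coding loci. The KLF15 locus held 5 regions and the KLF17 locus 4. The KLF15 promoter region was at -0.30 at 72 h, and KLF17 had no region within 3 kb of its canonical TSS. None of the 9 SP loci was raised or lowered at 72 h, with ratios from -0.09 (SP4) to 0.40 (SP5), and none of the 3 co-repressor loci CTBP1 (-0.11), CTBP2 (0.02) and SIN3A (-0.14).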

How the data were processed

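Accessibility was measured in 8 ATAC-seq libraries of MCF10A cells. The authors (per the labels and their methods) used Trimmomatic 0.38 for trimming and Bowtie2 2.4.5 for mapping to GRCh38, removed duplicates with Picard and mitochondrial or poorly mapped reads with SAMtools 1.4.1 (mapping quality above 30), and called peaks with Genrich 0.5 on both replicates of a condition together, with an adjusted p limit of 0.01 and an AUC of at least 200. The signal column deposited for each peak holds its AUC, which was not scaled between lists, is not linear in reads and rises with depth and peak width. The summit −log10 q values and the display score that the authors deposited were not used for any result. The condition of a list was taken from its name. Depth per library is unknown.

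Lists were merged (1 bp shared) and assigned to GENCODE 44 gene bodies with 50 kb on either side, on the same build. The AUC of a list was scaled by its median ratio to solvent at regions within 3 kb of a TSS. Backgrounds are all regions, and all protein-coding genes with at least 3 regions. With 1 list per condition there is no test, and intervals are 95% Wilson intervals. The calls were run on simulated lists made of solvent peaks, with planted changes of AUC and planted losses. Those lists had no gained peaks and no change in peak width, so the run does not bear on either. Motifs were searched within 100 bp of summits and, separately, over the whole of each sequence in the RefSeq table of promoters. Named were each promoter region, per gene the highest and lowest 72 h ratio among regions present in all lists with a solvent AUC of at least 400, and the 5 strongest regions gained in all TGFβ1 lists or lost at 72 h, of which there were 3. Other regions were picked after their values were seen. The genes, lists and rules were chosen with earlier results of these data known. Alternatives were another AUC minimum, lists of equal length, other scalings, AUC per base, a window of 10 kb, a fold of 2 and a 50% overlap. Versions were 3.11.15 for Python, 2.4.6 for numpy, 2.3.3 for pandas, 1.17.1 for scipy and 3.10.9 for matplotlib.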

Additional observations from a re-analysis of the deposited data

How the results depend on the processing

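No paired analysis was possible because each list pools both replicates of its condition, and no replicate could be left out. Of 66 shares recomputed, 37 stayed within the counting interval of the share reported and 29 did not. With peaks of an AUC of at least 400, 5.13% and 9.09% of KLF regions were raised at 6 and 24 h (all regions 7.09% and 14.0%) and none (0%) lowered at 6 h (0.689%). With lists of equal length, 2.08%, 9.09% and 15.8% were gained at 6, 24 and 72 h (9.19%, 13.2% and 15.6%), and 6.25% and 11.5% lost at 24 and 72 h (10.8% and 13.5%). Without scaling, 37.5%, 34.7% and 29.0% were raised (40.5%, 43.0% and 35.8%), and 0% and 2.11% lowered at 6 and 24 h (0.186% and 1.02%). Per base of peak, 4.17%, 8.42% and 8.60% were raised (5.41%, 10.5% and 11.6%), and 7.29% lowered at 6 h (4.62%). At a fold of 2, 3.12%, 5.26% and 7.53% were raised (3.45%, 8.37% and 10.5%), and 0% and 2.11% lowered at 6 and 24 h (0.215% and 0.935%). In the window of 10 kb, 0% were lowered at 6 h. When peaks had to share 50% of the length of each, counted per peak, 23.5%, 31.6% and 33.8% were gained and 16.2%, 13.3% and 18.1% lost, and the shares of all regions were not computed for these 2 settings. A longer, stricter or narrower list changes which peaks can be called by construction, and other causes were not tested.

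All 180 promoter ratios recomputed moved by less than 1.5-fold, as did 207 locus ratios. The other 3 locus ratios were per base of peak, -0.52 and -0.41 at KLF2 at 24 and 72 h and -0.13 at KLF7 at 72 h. Sums over regions with a peak in both lists and sums without KLF13 were added after seeing the data, as were the alternatives for single regions. Among single regions raised or lowered at 72 h, 4 changed sign, each per base of peak: -0.53 at KLF12 +1.2 kb, -0.26 at KLF13 +130.9 kb, -0.081 at KLF6 +35.4 kb and -0.32 at KLF7 +43.9 kb. For 8 weak regions, a minimum AUC of 400 left no peak in a list and no ratio. Of these, KLF12 +1.2 kb and KLF4 +5.5 kb also had no ratio with lists of equal length.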
